A study of Mus musculus with 18 samples.

Results

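The contrast between cortical layers was compared between mouse pups that had received FOXP2 and pups that had received a control plasmid. Layer 4 (L4) and layers 2 and 3 as 1 piece (L2-3) had been dissected from the same 6 brains. The 12 L4 and L2-3 libraries were used, of 18 in all, and the layer 5-6 (L5-6) libraries entered only as an alternative. The quantity throughout is the log2 ratio of L4 to L2-3 within a mouse in FOXP2 mice minus that ratio in GFP mice, called here the layer difference. It corresponds to the FOXP2 effect in L4 minus the FOXP2 effect in L2-3. A positive value means that the L4 to L2-3 ratio was higher in FOXP2 mice. Effects printed for 1 layer come from separate fits and do not subtract exactly to the layer difference.

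The FOXP2 group held 3 mice. Of these, 1 had received mouse Foxp2 cDNA (moFoxp2) and 2 had received human FOXP2 cDNA (huFOXP2 mouse 1 and mouse 2). The 3 control mice, labelled GFP, had received an empty plasmid. All were outbred CD-1 mice, electroporated in utero into the ventricular wall, at E14.5 (embryonic day), with Gfp cDNA to mark cells that took up plasmid. Brains were collected on postnatal day 7 and cut sagittally at 300 µm, and the dissected pieces of 1 layer were pooled for each mouse. The labels describe the L4 pieces as holding GFP-positive cells and the L2-3 pieces as holding GFP-negative cells. The word infragranular, which means below L4, is used there for the upper pieces too, and this slip in the labels bears on how far the names of the dissected pieces can be relied on. The promoter driving the cDNA is not given in the sources used here. By Xist and Y-linked reads, 1 mouse of each group was female. Mouse and human FOXP2 were pooled because moFoxp2 is 1 animal. Values are listed in the order moFoxp2, huFOXP2 mouse 1 and huFOXP2 mouse 2, then GFP mouse 1, 2 and 3.

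FOXP2 is a forkhead transcription factor that mainly represses its targets and that is found in the cortex chiefly in deep-layer neurons that project to the thalamus. Cortical neurons are born in an inside-out order. L4 neurons, marked by the nuclear receptor Rorb, receive the sensory input of the thalamus. L2-3 neurons, which express the upper-layer genes Cux1 and Cux2, connect cortical areas with each other. L2-3 lies next to layer 1 and the meninges, the fibroblast sheets and vessels that cover the brain.

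The libraries held 10111149 to 23404528 counts. GFP mouse 1 stood apart from the other mice. Its L4 library differed from those of the other GFP mice, and its L2-3 library likewise, by a chi-square per degree of freedom of 23.5 to 36.5, against 7.55 to 16.0 for the other pairs of replicates. The mean level of L4 markers was higher in L4 than in L2-3 by 0.70 to 1.15 log2 units in FOXP2 mice, against 0.17 in GFP mouse 1 and 0.61 and 0.76 in GFP mice 2 and 3. In L2-3 the mean level of meningeal markers was 6.51 to 7.22 in FOXP2 mice, against 4.82 in GFP mouse 1 and 6.43 and 6.05 in GFP mice 2 and 3, on the log2 scale of CPM (the counts of a gene scaled to the TMM-adjusted total of its library). HuFOXP2 mouse 1 carried photoreceptor reads in all of its libraries, 194 in L4 and 233 in L2-3, against at most 38 in any library of the other mice.

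For the transferred gene itself, no difference of the FOXP2 effect between the layers was detectable. Foxp2 (ENSMUSG00000029563.16, mm10, chromosome 6, 14901349 to 15441977, plus strand) had 34, 33.3 and 64.9 CPM in L4 of FOXP2 mice, against 5.93, 8.52 and 5.34 CPM in L4 of GFP mice. In L2-3 it had 21.1, 19.9 and 51.7 CPM in FOXP2 mice, against 1.77, 6.49 and 5.25 CPM in GFP mice. Every FOXP2 library was thus above every GFP library of its layer, in L2-3 as in L4, although the labels call the L2-3 cells GFP-negative. The FOXP2 effect was 2.75 log2 units in L4 and 2.78 in L2-3, and the layer difference was 0.03 ± 0.29 log2 units (SE; adjusted p = 0.966). Its sign changed with the settings tried, over -0.35 to 0.60 log2 units. Reads of the human cDNA can be counted only as far as they aligned to the mouse gene, so the levels of moFoxp2 and huFOXP2 mice are not on a common scale.

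Across all genes, the L4 to L2-3 ratio differed between FOXP2 and GFP mice for 825 of 15849 genes tested (5.21%; edgeR quasi-likelihood test with mouse as a block, Benjamini-Hochberg adjusted p below 0.05). The ratio was higher in FOXP2 mice for 525 genes (3.31%) and lower for 300 (1.89%). Most differences were small: 24 of the 525 and 97 of the 300 reached 2-fold, and the median layer difference was 0.49 log2 units among the higher and -0.84 among the lower genes. The 2 sets had opposite profiles. The 525 had a median log2 ratio of L4 to L2-3 of 0.58 in FOXP2 mice, against 0.09 in GFP mice, and the 300 had a median of -1.42 in FOXP2 mice, against -0.54 in GFP mice. These medians are of genes chosen on the same values, so the direction of the difference between the groups follows from the choice. Over all genes tested, 7357 (46.4%) differed between L4 and L2-3 in FOXP2 mice, against 2662 (16.8%) in GFP mice. For 146 of the 525 genes the ratio was above 0 in FOXP2 mice and below 0 in GFP mice, and for 35 of the 300 the reverse held.

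The larger share of the layer difference came from L2-3. Among the 525 genes, the FOXP2 effect was larger in size in L2-3 than in L4 for 470, with a median of 0.11 log2 units in L4 and -0.35 in L2-3, and it was negative in L2-3 for 523. Among the 300 genes, 290 were tested in both layers, and the effect was larger in size in L2-3 for 238 of them, with medians of -0.23 in L4 and 0.61 in L2-3. The effect had opposite signs in the 2 layers for 452 of the 525 and 260 of the 290. These medians describe genes chosen on the same values. Within single layers the same test called 4 of 14544 (0.0275%) between FOXP2 and GFP mice in L4 and 11 of 15241 (0.0722%) in L2-3. In L2-3 the count depended strongly on the method, with 755 by DESeq2, 865 without a filter on low counts and 195 with GFP mouse 1 left out. Of the 825 genes, 0 were called in L4, and 4 of the higher and 1 of the lower were called in L2-3. At an unadjusted p below 0.05 the counts were 457 in L4 and 2412 in L2-3.

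**Figure D1:**
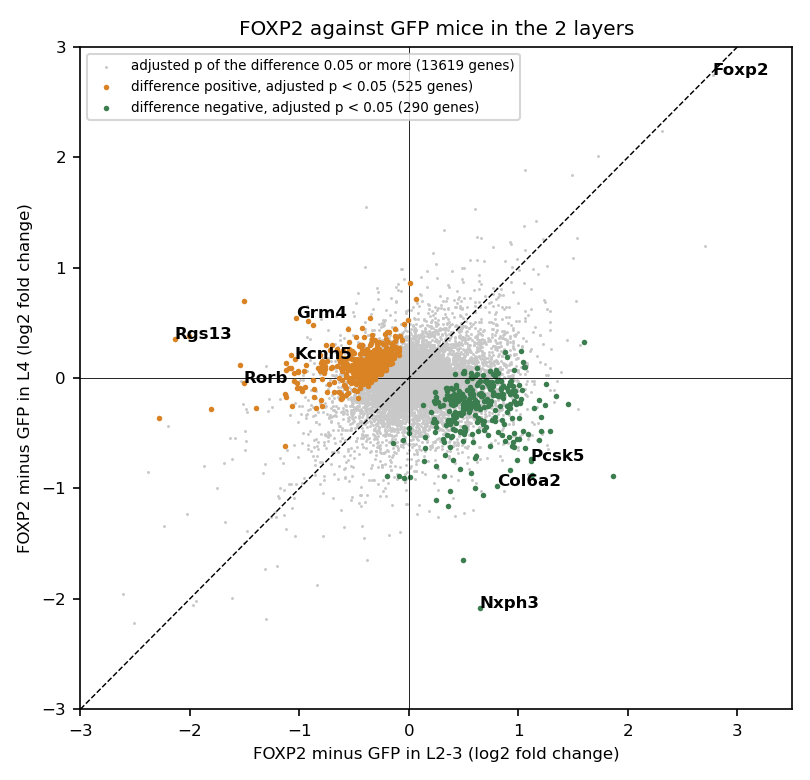
FOXP2 minus GFP log2 fold change of each gene in L4 (vertical axis) and in L2-3 (horizontal axis), for 14434 genes tested in both layers (5 lie outside the axes). Orange points are the 525 genes with a positive layer difference and green points 290 of the 300 with a negative one. They spread mainly along the horizontal axis, while Foxp2 sits on the diagonal of equal effects.

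The number of genes passing depended on the design. It was 0 without the mouse block (1381 at an unadjusted p below 0.05), 0 with all 18 libraries in the fit (2851) and 0 with a meningeal marker score as a term (1432). It was also 0 with a layer 6 and subplate score (749) or a layer 4 score (1433) as a term. Leaving out GFP mouse 3 left 4 calls (3 higher and 1 lower), leaving out huFOXP2 mouse 1 left 81, and leaving out GFP mouse 1 left 95. Leaving out both huFOXP2 mouse 1 and GFP mouse 1 left 23. The fits without calls did not all shrink the differences. Among the 525 higher and 300 lower genes, chosen on these same values, the median layer difference was 0.49 and -0.84 log2 units in the fit with the block. It was 0.44 and -0.89 without the block, 0.47 and -0.86 with all 18 libraries and 0.48 and -0.82 with the meningeal score. The meningeal score differed strongly between the layers in every mouse, so that fit cannot separate it well from the layer. The median layer difference was 0.41 and -0.65 with the layer 4 score and 0.34 and -0.47 with the layer 6 and subplate score. These scores include called genes, such as Rorb and Nxph3. The layer 6 and subplate contrast between the layers also did not overlap between FOXP2 and GFP mice. These fits therefore cannot separate the scores well from the layer difference. For the gene lists below, 6 counts of calls are given, each with 1 mouse left out. Their order is moFoxp2, huFOXP2 mouse 1 and 2, and GFP mouse 1, 2 and 3. Counts of calls in a list stand beside 3.31% of all genes called higher and 1.89% called lower. Over all genes tested, 8228 values were above 0 and 7621 below. DESeq2 called 613 genes, of which 509 were among the 825. With size factors from the relative log expression (RLE) method, 735 genes passed, 331 higher and 404 lower, so that the higher genes were 45% of the calls against 63.6% with TMM scaling. The median layer difference of all genes was 0.015 log2 units with TMM scaling and -0.028 with RLE.

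**Figure D2:**
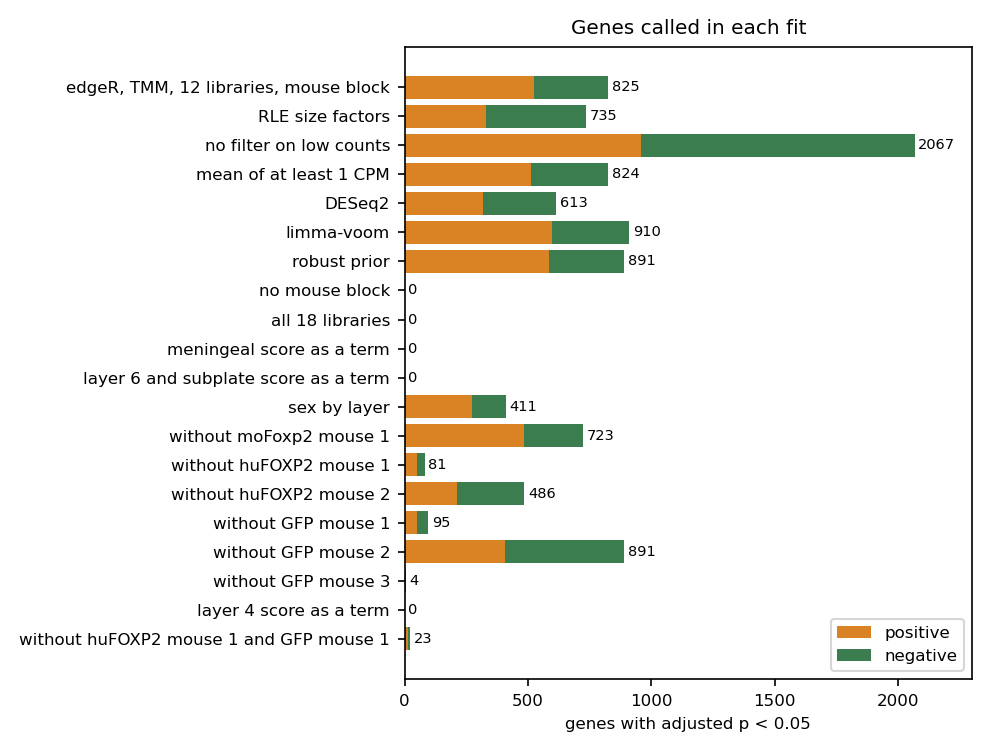
Number of genes with an adjusted p below 0.05 for the layer difference (horizontal axis) in each fit (rows), split into positive (orange) and negative (green) differences. Counts ran from 0, in the fits without a mouse block, with 18 libraries or with a marker score as a term, to 2067 without a filter on low counts.

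Genes were named by size, as the 12 with the largest layer difference in each direction among those that passed, had a mean of at least 1 CPM and had within-mouse ratios that did not overlap between FOXP2 and GFP mice. Over all genes, the ratios did not overlap for 2797 (17.6%) in the higher direction and 1991 (12.6%) in the lower. All 12 genes in each direction are thus at the extremes by choice, and their values are a description of those extremes.

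Among the 12 genes with a higher ratio in FOXP2 mice were 2 that mark L4 neurons. Rorb (chromosome 19, 18930605 to 19111196) had 266, 155 and 230 CPM in L4 of FOXP2 mice, against 239, 186 and 245 CPM in L4 of GFP mice. The L2-3 libraries held 59.2, 46.1 and 41.2 CPM of it in FOXP2 mice, against 207, 87.2 and 124 CPM in GFP mice. The L4 levels of the groups overlapped, and every FOXP2 library was below every GFP library in L2-3. The log2 ratio of L4 to L2-3 was 2.13 ± 0.37 in FOXP2 mice and 0.76 ± 0.48 in GFP mice (SD, n = 3 each), a layer difference of 1.36 ± 0.23 (SE; adjusted p = 0.0152). Kcnh5, a voltage-gated potassium channel, had 56.6, 53.9 and 64.1 CPM in L4 of FOXP2 mice, against 16.1, 60.4 and 76.0 CPM in L4 of GFP mice. In L2-3 it had 19.2, 21.8 and 24.8 CPM in FOXP2 mice, against 21.2, 41.3 and 74.3 CPM in GFP mice. GFP mouse 1 was far below the other mice in L4. The layer difference of Kcnh5 was 1.29 ± 0.19 (adjusted p = 0.0113).

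Grm4, a metabotropic glutamate receptor gene, had 110, 64.4 and 106 CPM in L4 of FOXP2 mice, against 66.3, 58.5 and 66.6 CPM in L4 of GFP mice. The L2-3 libraries held 21.3, 20.5 and 23.6 CPM of it in FOXP2 mice, against 63.5, 29.5 and 41.1 CPM in GFP mice. The groups did not overlap in L2-3, and in L4 huFOXP2 mouse 1 lay within the range of the GFP mice. The layer difference of Grm4 was 1.47 ± 0.23 (adjusted p = 0.0131).

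Several of the higher genes encode signalling molecules. Rgs13, a regulator of G-protein signalling, had the largest layer difference, 2.28 ± 0.41 (adjusted p = 0.0177). It averaged 5.09 ± 2.02 CPM in L4 and 0.842 ± 0.134 CPM in L2-3 of FOXP2 mice, against 3.98 ± 1.56 CPM in L4 and 3.78 ± 2.37 CPM in L2-3 of GFP mice (SD, n = 3 each). Spx, which encodes the neuropeptide spexin, differed by 2.26 ± 0.43 (adjusted p = 0.021). Cckbr, the brain receptor for cholecystokinin, differed by 1.41 ± 0.35 (adjusted p = 0.0429), and its log2 ratio was 1.95 ± 0.44 in FOXP2 mice and 0.78 ± 0.42 in GFP mice. Glp2r, the receptor for glucagon-like peptide 2, differed by 1.75 ± 0.42 (adjusted p = 0.0379) and shares exon sequence with Gas7. Grem1, a secreted antagonist of bone morphogenetic proteins, averaged 13.7 ± 4.46 CPM in L4 and 2.45 ± 0.63 CPM in L2-3 of FOXP2 mice, against 12.5 ± 1.17 CPM in L4 and 7.02 ± 4.02 CPM in L2-3 of GFP mice. As a ratio of FOXP2 to GFP means, each of these genes differed less in L4 than in L2-3. The set was completed by Lct (lactase, 2.15), Plb1 (a phospholipase, 1.43), the long noncoding RNA 2900072N19Rik (1.39) and Mybpc1 (a myosin-binding protein, 1.37). Exons of Plb1 and Mybpc1 overlap other annotated genes.

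The 12 genes with a lower ratio in FOXP2 mice included genes that differed mainly in L4 and genes that differed mainly in L2-3. Nxph3, which encodes neurexophilin 3, a secreted ligand of alpha-neurexins found in layer 6 and subplate neurons, was mainly lower in L4. It had 2.87, 1.46 and 1.31 CPM in L4 of FOXP2 mice, against 10.6, 6.51 and 6.5 CPM in L4 of GFP mice. In L2-3 it had 6.6, 1.87 and 1.12 CPM in FOXP2 mice, against 1.26, 3.58 and 1.22 CPM in GFP mice. The groups were apart in L4 and overlapped in L2-3. The layer difference was -2.61 ± 0.55 (adjusted p = 0.0277).

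Pcsk5, a proprotein convertase, had 2.42, 2.86 and 4.01 CPM in L4 of FOXP2 mice, against 3.89, 6.99 and 4.75 CPM in L4 of GFP mice. The L2-3 libraries held 7.98, 13 and 11.1 CPM of it in FOXP2 mice, against 3.08, 6.61 and 5.31 CPM in GFP mice. The groups did not overlap in L2-3, and the layer difference was -1.85 ± 0.24 (adjusted p = 0.0113). Col6a2, a chain of collagen VI, had 6.27, 6.55 and 9.48 CPM in L4 of FOXP2 mice, against 14.9, 14.3 and 14.7 CPM in L4 of GFP mice. In L2-3 it had 47.4, 122 and 79.1 CPM in FOXP2 mice, against 27.0, 59.1 and 57.7 CPM in GFP mice. Col6a2 was lower in every FOXP2 library of L4 and overlapped between the groups in L2-3, and its layer difference was -1.76 ± 0.35 (adjusted p = 0.0233).

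Cd274, the checkpoint ligand PD-L1, averaged 1.31 ± 0.614 CPM in L4 and 7.14 ± 1.79 CPM in L2-3 of FOXP2 mice, against 2.34 ± 0.176 CPM in L4 and 3.26 ± 0.387 CPM in L2-3 of GFP mice, a layer difference of -2.02 ± 0.32 (adjusted p = 0.0148). The amino acid transporter Slc6a20a averaged 1.02 ± 0.261 CPM in L4 and 32.2 ± 10.9 CPM in L2-3 of FOXP2 mice, against 1.72 ± 0.259 CPM in L4 and 15 ± 5.96 CPM in L2-3 of GFP mice. The complement gene C4b differed by -1.74 ± 0.35 (adjusted p = 0.0252) and may share reads with its near-identical copy C4a. Osr1, a zinc finger transcription factor, differed by -3.14 ± 0.73 in the fit (adjusted p = 0.0362), but the L4 libraries of FOXP2 mice held 3 Osr1 reads in all. Scaled for depth, its L4 to L2-3 ratio over the FOXP2 libraries was 0.00665 (95% exact interval 0.00137 to 0.0195, counting error only), with 564 reads in L2-3. Padi2, a peptidylarginine deiminase, rested on 2 of the 3 FOXP2 mice, with log2 ratios of -3.20, -3.07 and -0.40, against 0.18, -0.35 and -0.07 in GFP mice. The others were Klhdc7a (-2.52), the transporter Abca8a (-2.18), the Notch-family ligand Dlk1 (-1.91) and the lectin Clec2d (-1.87). Klhdc7a had only 1, 4 and 2 reads in L4 of FOXP2 mice, and Dlk1 had 4, 3 and 7. Both values rest on low counts, and neither gene passed the filter for the test within L4. Exons of Padi2, Klhdc7a, Cd274 and Slc6a20a overlap other annotated genes, which makes 7 of the 24 named genes in both directions.

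**Figure D3:**
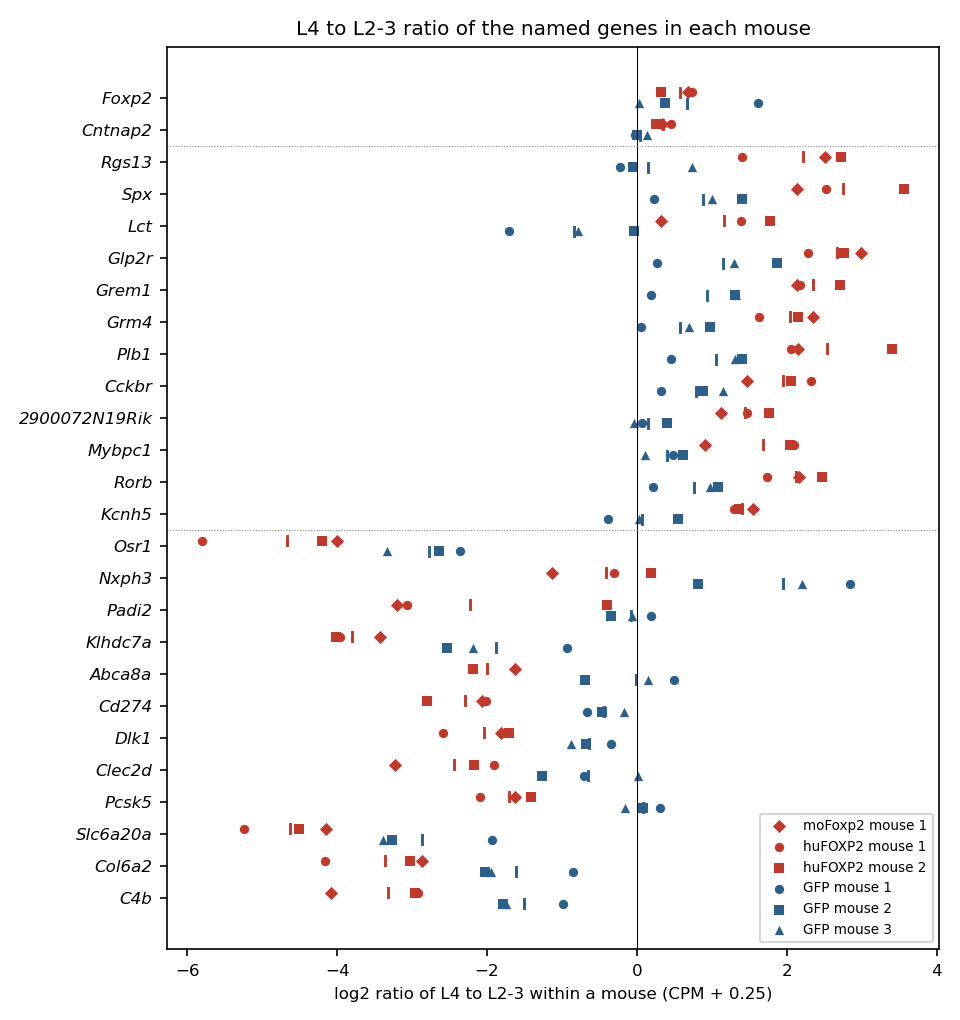
Log2 ratio of L4 to L2-3 within each mouse (horizontal axis) for Foxp2, Cntnap2 and the 24 named genes (rows). Red symbols are the 3 FOXP2 mice, blue symbols the 3 GFP mice, and vertical ticks the group means. FOXP2 mice lie to the right of GFP mice for the 12 upper named genes and to the left for the 12 lower ones, while the Foxp2 ratios overlap.

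Promoters of the named genes were searched for the 7-base forkhead motif TGTTTAC and its other strand GTAAACA, because FOXP2 binds forkhead motifs. RefSeq promoters (GRCm38.p6, 250 bases before the start) were found for 19 of the 24 genes, and 2 held the motif. The share was 2.71% of 11696 promoters of genes tested, 2.58% of 387 with a higher ratio and 4.26% of 235 with a lower ratio. The 2 promoters follow with the motif in capitals, and a match describes the letters only.
Cckbr, chr7:105425481-105425730, plus strand: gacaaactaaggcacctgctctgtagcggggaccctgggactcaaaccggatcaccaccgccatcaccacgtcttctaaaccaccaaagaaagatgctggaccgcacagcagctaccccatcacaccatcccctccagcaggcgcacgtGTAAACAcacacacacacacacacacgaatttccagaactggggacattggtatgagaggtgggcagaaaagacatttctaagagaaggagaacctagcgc
Dlk1, chr12:109452573-109452822, plus strand: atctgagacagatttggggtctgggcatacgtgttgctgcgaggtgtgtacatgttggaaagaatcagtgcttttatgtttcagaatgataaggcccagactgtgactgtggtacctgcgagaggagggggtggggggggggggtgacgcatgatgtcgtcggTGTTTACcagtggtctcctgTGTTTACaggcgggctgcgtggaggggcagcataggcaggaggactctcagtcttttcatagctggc
Dlk1 held 2 copies on the gene's strand, the first bases of which lay 87 and 67 bases before the start, and Cckbr held 1 on the other strand at 101 bases.

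Marker genes of the cortical layers differed by layer. Of 10 L2-3 neuron markers tested, 8 had a higher L4 to L2-3 ratio in FOXP2 mice and none a lower one, with a median layer difference of 0.64 log2 units against 0.015 over all genes. The 8 were Cux1, Cux2, Rasgrf2, Mdga1, Pou3f1, Pou3f2, Calb1 and Lamp5. Cux1, a homeobox factor of upper-layer neurons, averaged 344 ± 16.4 CPM in L4 and 251 ± 11.4 CPM in L2-3 of FOXP2 mice, against 295 ± 21.9 CPM in L4 and 342 ± 35.8 CPM in L2-3 of GFP mice, a layer difference of 0.67 ± 0.10 (adjusted p = 0.0127). The mean level of the list was higher in L4 than in L2-3 in all 3 FOXP2 mice, by 0.37, 0.37 and 0.41 log2 units, against -0.12, 0.03 and -0.14 in GFP mice (exact permutation p = 0.1, 2-sided, the smallest that 3 against 3 mice allow; adjusted p = 0.21). Of 36 such levels tested (35 lists and the mitochondrial share), 17 reached this smallest permutation p. In FOXP2 mice the mean level of this list was thus higher in the libraries labelled L4 than in those labelled L2-3. In GFP mice the list hardly set the layers apart, with a median log2 ratio of L4 to L2-3 of -0.06. It is therefore a weak guide to L2-3 identity in these libraries. As bulk samples, the libraries cannot tell fewer cells of a type from less RNA per cell.

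Of 8 L4 markers, Rorb, Kcnh5 and Thsd7a had a higher ratio, with a median of 0.42 for the list (exact permutation p = 0.2 for the mean level, with overlapping groups), 0.22 without GFP mouse 1 and -0.01 with the layer 6 and subplate score as a term. The deep-layer lists had negative medians. Of 13 layer 6 and subplate markers, 11 had values below 0 and 3 passed, all lower: Nxph3, Syt6 and Rprm. The 2 above 0, which did not pass, were Tbr1 (0.33) and Ntsr1 (0.48). The members also differed in GFP mice, where Ctgf and Sulf1 had the lowest log2 ratios of L4 to L2-3 in the list (-2.04 and -1.67). Syt6, a synaptotagmin of corticothalamic neurons, averaged 5.17 ± 0.921 CPM in L4 and 6.11 ± 3.08 CPM in L2-3 of FOXP2 mice, against 11.5 ± 2.29 CPM in L4 and 4.77 ± 0.34 CPM in L2-3 of GFP mice, a layer difference of -1.42 ± 0.27 (adjusted p = 0.0215). The layer 6 and subplate level in L4 relative to L2-3 was -0.92, -0.56 and -0.49 log2 units in FOXP2 mice, against 0.84, -0.21 and 0.14 in GFP mice (exact permutation p = 0.1). The list median was -1.23, and -0.69 without GFP mouse 1. Of 10 layer 5 markers, Tcerg1l (-0.95 ± 0.16, adjusted p = 0.0152) and Etv1 (-0.53 ± 0.12, adjusted p = 0.0318) had a lower ratio and none a higher one. Leaving out each mouse in turn, the calls numbered 7, 0, 5, 2, 8 and 0 among the L2-3 markers and 3, 2, 3, 2, 2 and 0 among the L4 markers. They numbered 3, 1, 4, 1, 4 and 0 among the layer 6 and subplate markers and 2, 0, 2, 1, 4 and 0 among the layer 5 markers.

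**Figure D4:**
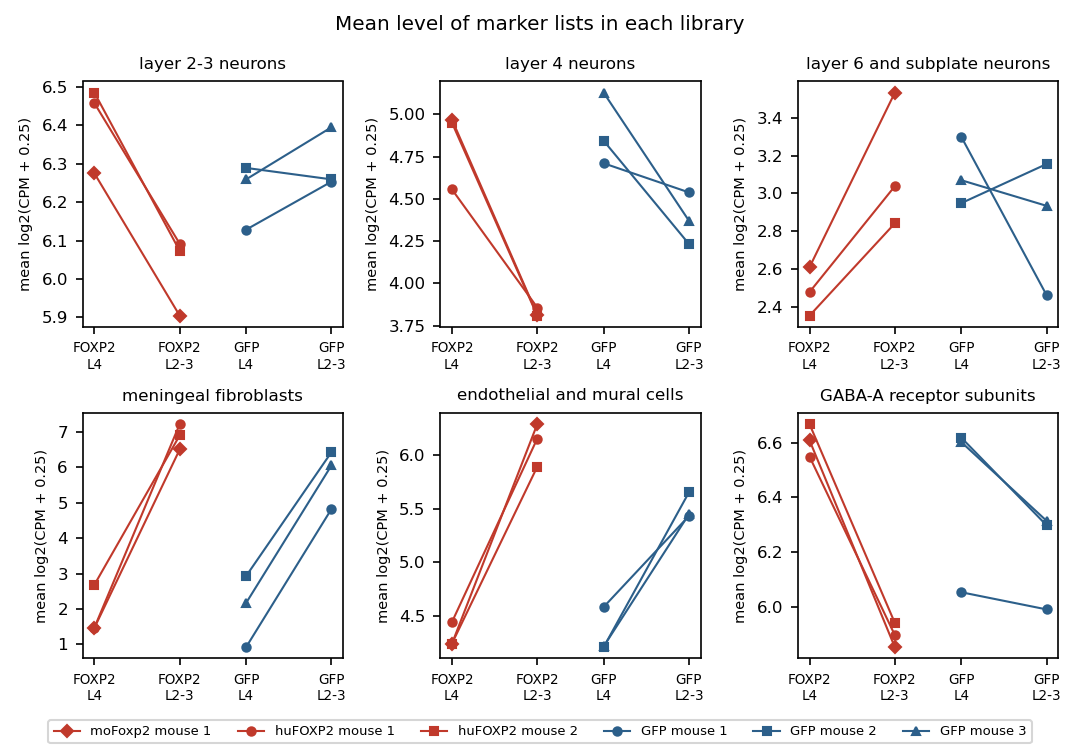
Mean log2(CPM + 0.25) of 6 gene lists (vertical axes) in each L4 and L2-3 library (horizontal axes), with a line joining the libraries of a mouse, red for FOXP2 and blue for GFP. Meningeal markers were higher in L2-3 in every mouse, with the lowest L2-3 level, 4.82, in GFP mouse 1. L2-3 neuron markers were higher in L4 in the 3 FOXP2 mice.

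Markers of cells outside the neuronal layers were mostly below 0. All 9 meningeal fibroblast markers had values below 0, with a median of -1.23. Against 1.89% of all genes called lower, 1 of the 9 passed. That was Lum, which encodes the collagen-binding proteoglycan lumican, with 2.32 ± 0.262 CPM in L4 and 29.5 ± 1.36 CPM in L2-3 of FOXP2 mice, against 3.20 ± 1.32 CPM in L4 and 16.9 ± 6.51 CPM in L2-3 of GFP mice (-1.28 ± 0.19, adjusted p = 0.0113). The mean meningeal level was lower in L4 than in L2-3 by 5.04, 5.75 and 4.22 log2 units in FOXP2 mice, against 3.9, 3.5 and 3.89 in GFP mice (exact permutation p = 0.1). In L2-3 that level ranged from 6.51 to 7.22 in FOXP2 mice and from 4.82 to 6.43 in GFP mice, and in L4 from 1.47 to 2.68 in FOXP2 mice and from 0.92 to 2.93 in GFP mice. With that level as a term no gene passed for the layer difference or between the layers in either group. The median layer difference of the called genes was then 0.48 among the higher and -0.82 among the lower, against 0.49 and -0.84 without the term. Because the level differed by at least 3.5 log2 units between the layers in every mouse, this fit cannot separate it well from the layer. The medians, of genes chosen on the same values, therefore decide nothing about the meningeal part. In the 6 leave-outs, 1, 1, 8, 1, 1 and 0 meningeal markers passed, so that 8 of the 9 did without huFOXP2 mouse 2.

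The vascular and extracellular matrix genes had the same direction. All 10 endothelial and mural markers were below 0 (median -0.64). Only the endothelial cadherin Cdh5 passed (-0.88 ± 0.21, adjusted p = 0.0407), against 1.89% of all genes called lower. With 1 mouse left out, 0, 0, 1, 0, 5 and 0 of the endothelial and mural markers passed. All 13 collagen genes were below 0 (median -0.89), and 5 passed: Col4a1, Col4a2, Col5a1, Col6a1 and Col6a2. The 13 include 3 genes of the meningeal list, none of which passed. Leaving out each mouse in turn, 3, 0, 8, 1, 6 and 0 collagen genes passed. Of 15 retinoic acid pathway genes, 13 were below 0 (median -0.84) and only the receptor Rxra passed (-0.84 ± 0.18, adjusted p = 0.0304), a share not far from the 5.21% called over all genes. In the 6 leave-outs, 1, 0, 1, 0, 2 and 0 of them passed. Red blood cell genes had a median of -1.03 over 4, microglial genes -0.48 over 11 and Cajal-Retzius and layer 1 genes -0.43 over 6, with no call in any of the 3 lists. With huFOXP2 mouse 2 left out, 3 of the 4 red blood cell genes passed, and no other leave-out gave a call in these lists. The defining Cajal-Retzius gene Trp73 had a value of -1.57 ± 0.45 (adjusted p = 0.0624).

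Among the astrocyte and oligodendrocyte lists 1 gene passed in each, against 5.21% of all genes. With lists this short, 1 call does not set a list apart from that share. Gfap, an astrocyte filament protein, had 42.6, 61.4 and 60.3 CPM in L4 of FOXP2 mice, against 96.3, 53.8 and 48.8 CPM in L4 of GFP mice. The L2-3 libraries held 1127, 750 and 680 CPM of it in FOXP2 mice, against 482, 377 and 305 CPM in GFP mice, so the groups were apart in L2-3 and overlapped in L4. Its layer difference was -1.33 ± 0.26 (adjusted p = 0.023), while the median of 10 astrocyte markers was -0.45. Pdgfra, the receptor that marks oligodendrocyte precursors, differed by -0.56 ± 0.14 (adjusted p = 0.0442), with a median of -0.30 over 12 genes of that lineage. Of 13 interneuron genes, the peptide gene Sst (-0.58 ± 0.13, adjusted p = 0.0342) and Reln, which encodes the layering protein reelin that Cajal-Retzius cells also make (-0.62 ± 0.15, adjusted p = 0.0373), passed, and the median was -0.12. With 1 mouse left out, the calls numbered 2, 1, 1, 0, 2 and 0 among astrocyte genes, 0, 0, 1, 0, 1 and 0 in the oligodendrocyte lineage and 1, 1, 0, 1, 1 and 0 among interneuron genes.

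Receptors for the inhibitory transmitter GABA had positive values. All 12 GABA-A receptor subunits had values above 0 (median 0.41). Against 3.31% of all genes called higher, 6 passed, all higher, among them Gabra4, Gabrb1 and Gabrb2. Exons of Gabra4 and Gabrb1 overlap in the annotation, so reads there cannot be assigned to either. Gabra4 had 88.8, 83.5 and 93.4 CPM in L4 of FOXP2 mice, against 67.8, 84.3 and 90.6 CPM in L4 of GFP mice. Its L2-3 levels were 40.8, 45.4 and 44.6 CPM in FOXP2 mice, against 63.4, 68.1 and 66.5 CPM in GFP mice. The groups overlapped in L4 and were apart in L2-3, and the layer difference was 0.73 ± 0.11 (adjusted p = 0.0124). Leaving out each mouse in turn, 5, 2, 4, 2, 5 and 0 of the subunits passed.

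Receptors for glutamate were mixed, beside 3.31% of all genes called higher and 1.89% called lower. Of 6 NMDA receptor subunits, Grin2a (0.78 ± 0.13, adjusted p = 0.0152) and Grin2b had a higher ratio, and Grin3a, an inhibitory subunit, a lower one (-0.47 ± 0.10, adjusted p = 0.0273). Of 12 AMPA receptor and auxiliary subunits, 3 passed, all higher, among them Gria2 (0.36 ± 0.08, adjusted p = 0.0328) and the auxiliary subunit Shisa6 (0.83 ± 0.15, adjusted p = 0.0196). Of 5 kainate receptor subunits, Grik1 passed (0.53 ± 0.11, adjusted p = 0.0253). In the 6 leave-outs, the calls numbered 3, 0, 3, 1, 4 and 0 among NMDA, 3, 0, 1, 1, 1 and 0 among AMPA and 1, 0, 0, 0, 0 and 0 among kainate receptor genes.

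Ion channel genes were mainly above 0, and 3.31% of all genes were called higher. Of 18 potassium and HCN channel genes, 15 were above 0 (median 0.41) and 8 passed, all higher, among them Kcna2, Kcnd2, Kcnh1, Kcnh7, Kcnj3, Kcnq3 and Kcnq5. The largest of these were the inward rectifier Kcnj3 (0.90 ± 0.14, adjusted p = 0.015) and Kcnh1 (0.87 ± 0.13, adjusted p = 0.0127). Of 15 sodium and calcium channel genes, 14 were above 0 (median 0.33) and 5 passed, all higher: Scn1a, Scn2a, Scn3a, Scn8a and the T-type calcium channel Cacna1i (0.84 ± 0.15, adjusted p = 0.0172). With 1 mouse left out, the counts were 7, 2, 6, 4, 8 and 0 among the potassium and HCN channels and 2, 0, 2, 0, 5 and 0 among the sodium and calcium channels.

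Of 19 presynaptic release genes, 18 were above 0 (median 0.28), and 2 passed, both higher, against 3.31% of all genes. One was Slc17a6, the vesicular glutamate transporter VGLUT2. It had 111, 125 and 111 CPM in L4 of FOXP2 mice, against 78.8, 96.4 and 113 CPM in L4 of GFP mice. The L2-3 libraries held 74.6, 76.7 and 75.2 CPM of it in FOXP2 mice, against 97.5, 114 and 134 CPM in GFP mice. The log2 ratio of L4 to L2-3 was 0.58, 0.71 and 0.56 in FOXP2 mice, against -0.31, -0.25 and -0.24 in GFP mice, so its sign differed between the groups in every mouse. The layer difference was 0.88 ± 0.08 (adjusted p = 0.0027). The other was the active-zone gene Rims1 (0.43 ± 0.09, adjusted p = 0.0241). Leaving out each mouse in turn, 2, 1, 1, 1, 4 and 1 of the presynaptic genes passed.

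**Figure D5:**
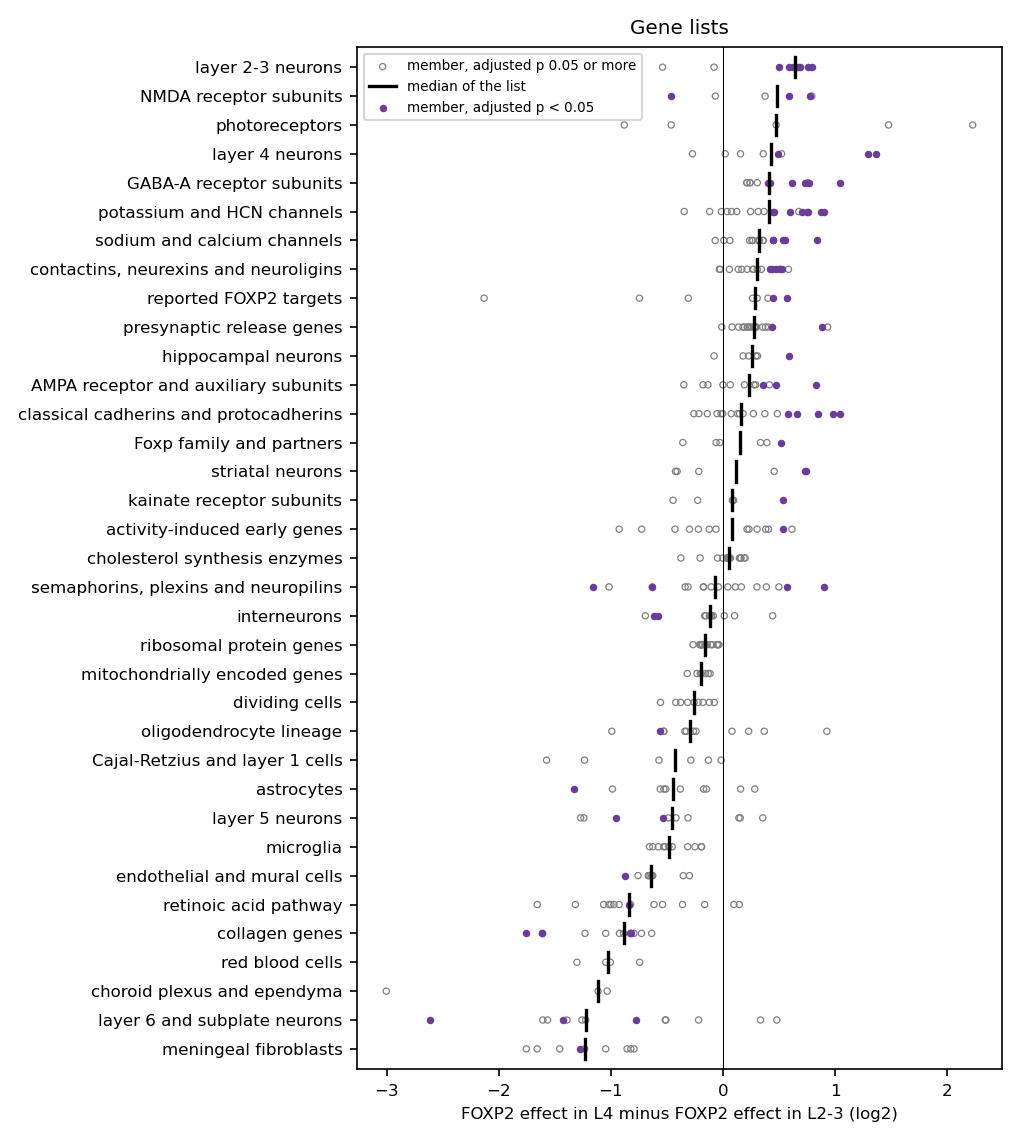
Layer difference in log2 units (horizontal axis) of each tested member of 35 gene lists (rows, ordered by median). Filled points have an adjusted p below 0.05 over all genes, open points do not, and black ticks are list medians. L2-3 neuron markers have the highest median, 0.64, and meningeal markers and layer 6 and subplate markers the lowest, -1.23 each.

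Adhesion and guidance genes were split by family, beside 3.31% of all genes called higher and 1.89% called lower. Of 17 contactins, neurexins and neuroligins, 15 were above 0 (median 0.30) and 5 passed, all higher, among them Cntn2, Cntn3, Cntn6 and Nlgn1. Of 18 classical cadherins and protocadherins, 5 passed, all higher, led by Cdh12 (1.05 ± 0.15, adjusted p = 0.0113) and Cdh6 (0.85 ± 0.11, adjusted p = 0.0104), with Pcdh7, Pcdh9 and Pcdh20. Of 18 semaphorins, plexins and neuropilins, Sema7a (0.90) and Plxna4 (0.57 ± 0.09, adjusted p = 0.015) had a higher ratio and the receptors Nrp1 (-0.63) and Nrp2 a lower one. Nrp2, a semaphorin co-receptor, averaged 71.4 ± 1.37 CPM in L2-3 of FOXP2 mice, against 37.9 ± 13.1 CPM in L2-3 of GFP mice (SD, n = 3 each). Its log2 ratio of L4 to L2-3 was -2.81 ± 0.17 in FOXP2 mice and -1.61 ± 0.26 in GFP mice, a layer difference of -1.16 ± 0.15 (adjusted p = 0.0104). In the 6 leave-outs, the calls numbered 3, 0, 0, 0, 4 and 0 among contactins, neurexins and neuroligins. They numbered 6, 3, 5, 3, 5 and 0 among cadherins and 6, 1, 4, 2, 4 and 1 among semaphorins, plexins and neuropilins.

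Of 8 genes reported as FOXP2 targets in other systems, 5 were above 0 and 3 below. In all 2 passed, both higher, against 3.31% of all genes tested. The mean level of the list in L4 minus L2-3 was lower in FOXP2 mice by 0.11 log2 units, with overlapping groups (exact permutation p = 0.6). Mef2c, a transcription factor of synapse development, had log2 ratios of L4 to L2-3 of 0.69, 0.52 and 0.32 in FOXP2 mice, against -0.10, 0.01 and -0.11 in GFP mice (layer difference 0.57 ± 0.11, adjusted p = 0.0196). Vldlr, a reelin receptor, had ratios of 0.54, 0.43 and 0.26 in FOXP2 mice, against -0.01, 0.01 and -0.09 in GFP mice (0.44 ± 0.09, adjusted p = 0.0263). Cntnap2, a neurexin-family gene on chromosome 6 (45059357 to 47304213), had ratios of 0.34, 0.45 and 0.25 in FOXP2 mice, against -0.03, 0.01 and 0.14 in GFP mice. Its ratios did not overlap, and its layer difference of 0.30 ± 0.09 did not pass (adjusted p = 0.0641). The related forkhead gene Foxp1 had a layer difference of 0.39 ± 0.10 (adjusted p = 0.0505). With 1 mouse left out, 2, 0, 2, 0, 2 and 0 of the 8 reported targets passed.

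Several lists gave no call. These were 18 ribosomal protein genes (median -0.16), 7 mitochondrially encoded genes (-0.19), 15 cholesterol synthesis enzymes (0.05), 9 genes of dividing cells (-0.26), 5 photoreceptor genes (0.47) and 3 choroid plexus and ependyma genes (-1.12). Of 14 activity-induced early genes, 7 were above 0 (median 0.08) and the immediate early gene Egr3 passed (0.54 ± 0.10, adjusted p = 0.0209), a share near the 5.21% called over all genes. Among markers of neighbouring regions, against 5.21% of all genes, the calls were 2 of 6 striatal genes, among them the dopamine receptor Drd1 (0.73, adjusted p = 0.0443), and 1 of 6 hippocampal genes, Neurod2 (0.59 ± 0.11, adjusted p = 0.0231), which is also expressed in cortical neurons. Leaving out each mouse in turn, the calls numbered 2, 0, 0, 0, 2 and 0 among early, 0, 0, 1, 0, 1 and 0 among striatal and 2, 0, 0, 0, 1 and 0 among hippocampal genes.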

How the data were processed

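RNA was sequenced (Illumina TruSeq, per the labels' protocols) from layers dissected from 6 mice. The authors deposited 1 table of whole-number counts for 54446 genes, not normalized, and the submitters' processing notes name STAR, HTSeq and the mm10 build. No version, strand setting or batch is given in the sources used here, so reads of overlapping and antisense genes cannot be told apart. Identifiers were matched without their version to GENCODE M21, which held 54409 of them. Coordinates are from that annotation.

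Counts of the 12 L4 and L2-3 libraries were filtered with filterByExpr (minimum count 10, minimum total 15), scaled by TMM and fitted with edgeR 4.0.16 (R 4.3.3), with mouse as a block and an L4 term for each group, leaving 4 residual degrees of freedom. The quasi-likelihood test was adjusted by Benjamini-Hochberg over all genes. Effects in 1 layer were fitted on its 6 libraries. Within-mouse ratios and list levels used log2(CPM + 0.25). Levels of lists were compared by an exact permutation test over the 20 splits of the mice, whose smallest p is 0.1. The fits were tested on simulated counts. The layers of a mouse share its replicate number in the labels, and L4 and L2-3 libraries of a mouse deviated together from their group means over 14244 genes, with correlations of 0.335 to 0.712.

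Alternatives numbered 17 planned and 2 added after seeing the data: a layer 4 score as a term, and leaving out huFOXP2 mouse 1 and GFP mouse 1 together. They included limma 3.58.1 and DESeq2 1.42.0. The contrast, the named-gene rule and the gene lists were chosen with earlier results of these data known. Counting error sets the precision of low counts, and more deeply sequenced libraries carry less of it. Each mouse is 1 replicate. The p-values and SE of the layer difference do not rest on the spread of a gene between mice alone. They combine it (4 residual degrees of freedom) with a variance estimated over all genes (7.07 prior degrees of freedom). Some genes of the lists are not reported here.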

Additional observations from a re-analysis of the deposited data

Results flagged for a closer look

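The L4 to L2-3 ratio of 825 genes differed between FOXP2 and GFP mice by the test of that difference itself, which is why it is listed here. The meningeal marker level was lower in L4 than in L2-3 by 5.01 ± 0.76 log2 units in FOXP2 mice and by 3.76 ± 0.23 in GFP mice (SD, n = 3 each). With that level as a term 0 genes passed. The median layer difference of the 525 higher and 300 lower genes was then 0.48 and -0.82 log2 units, against 0.49 and -0.84 without it. A level so different between the layers cannot be separated well from the layer in this fit.

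Photoreceptor genes had 255 reads in the L5-6 library of huFOXP2 mouse 1, which lies outside the comparison, against at most 38 in the L5-6 libraries of GFP mice. The L4 and L2-3 libraries of that mouse held 194 and 233 such reads, and the photoreceptor transcription factor Crx had 35 and 39 of them.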

How the results depend on the processing

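The 825 calls became 735 with RLE factors, 2067 without a filter on low counts, 613 with DESeq2, 411 with a sex-by-layer term, and 4 to 891 with 1 mouse left out; the lowest was without GFP mouse 3. With huFOXP2 mouse 1 and GFP mouse 1 both left out 23 passed. With no replicate block, that is without pairing the layers of a mouse, 0 passed, as with all 18 libraries or with a meningeal, layer 6 and subplate or layer 4 score as a term. The median layer difference of the 525 and 300 genes was 0.44 and -0.89 with no replicate block, 0.47 and -0.86 with 18 libraries, 0.48 and -0.82 with the meningeal, 0.41 and -0.65 with the layer 4 and 0.34 and -0.47 with the layer 6 and subplate score, against 0.49 and -0.84. The cause was not tested. Of the 24 named genes, 11 of the higher and 12 of the lower passed with RLE factors, 9 and 8 with DESeq2 and 7 and 6 with the sex term. Without moFoxp2 11 and 7 passed, without huFOXP2 mouse 1 4 and 2, and without huFOXP2 mouse 2 4 and 8. Without GFP mouse 1 3 and 3 passed, and without GFP mouse 2 10 and 10. With huFOXP2 mouse 1 and GFP mouse 1 both left out, 3 and 1 passed. The counts were 0 and 0 in the 5 fits with no call and without GFP mouse 3.

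Between L4 and L2-3, FOXP2 mice had 4054 calls with no replicate block, 1990 with the layer 6 and subplate score and 0 with the meningeal score. GFP mice had 840 with no replicate block, 1670 with all 18 libraries, 1504 with the sex term, 0 with the meningeal score and 1040 to 3536 with 1 mouse left out. FOXP2 against GFP gave 189 calls in L4 without the filter, 32 with DESeq2 and 2 with limma-voom. In L2-3 it gave 4 calls with RLE factors, 865 without the filter, 755 with DESeq2, 2 with limma-voom, 20 with a robust prior and 3 to 195 with 1 mouse left out, 195 being without GFP mouse 1.

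The layer difference of Foxp2 was -0.015 with RLE factors, -0.076 with DESeq2, -0.055 with no replicate block, -0.011 with 18 libraries, -0.35 with the meningeal score and -0.33 to 0.32 with 1 mouse left out. Signs also turned with the layer 6 and subplate score for Csf1r (0.057), Tmem119 (0.060), Hbb-bs (0.037), Top2a (0.025), mt-Cytb (0.017) and mt-Nd2 (0.11), and with the layer 4 score for Top2a (0.00089) and mt-Nd2 (0.026), none of which had passed.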

Other observations

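Further gene groups, chosen after their values were seen, are given as values with no test of the group. Their counts of calls stand beside 3.31% of all genes called higher and 1.89% called lower. High counts follow in part from that choice, and calls with 1 mouse left out are not given for them. The smallest p-value for the layer difference belonged to Lpl, which encodes lipoprotein lipase, with 1.03 ± 0.08 log2 units (SE; adjusted p = 0.000625). Kitl, the ligand of the receptor Kit, had 0.91 ± 0.10 (adjusted p = 0.0102). Genes of the calcium-dependent phosphatase calcineurin were above 0 in 4 of 4 cases, and Ppp3ca (0.45), Ppp3cb (0.49) and Ppp3r1 (0.56) passed. Both Rev-erb nuclear receptors of the circadian clock passed, Nr1d1 with 0.86 and Nr1d2 with 0.52. Of 4 Mef2 factors, Mef2a (0.48) and Mef2c (0.57) passed. Mef2d (0.21) and Mef2b (-1.33, with a mean of 0.41 CPM) did not.

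Basement membrane genes were below 0. Among 14 laminins, nidogens and perlecan the median was -0.78, and Lama5, Lamb1, Lamb2, Nid1, Nid2 and Hspg2 passed. All of Kank1, Kank2, Kank3 and Kank4, which encode adaptors at integrin adhesions, passed with -0.78, -0.99, -0.93 and -1.12. Of 5 caveolin and cavin genes Cav1 (-0.96), Cavin1 (-0.94) and Cavin3 (-0.84) passed, and of 5 Zic transcription factors Zic1 (-0.87) and Zic4 (-1.67). The chemokine gene Cxcl12 had -1.32 ± 0.16 (adjusted p = 0.0104), while its receptors Cxcr4 (-0.52) and Ackr3 (-0.62) did not pass. Many of these genes are expressed by vessels or meninges, whose markers were also below 0, and the part of those cells in these values was not tested.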
